A study of Rattus norvegicus with 22 samples.

Results

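Untreated contused rat spinal cord was compared with normal cord, which are 5 of the 22 arrays of the study: 2 contusion arrays (contusion 1 and 2) and 3 normal arrays (normal 1, 2 and 3). In the contusion group a 10 g rod with a tip of 2.5 mm was dropped 25 mm onto the exposed cord at thoracic level 10, and the cord was taken 24 h later without any treatment. The normal group is labelled only as normal cord, with no time of collection given. All animals were perfused with buffered saline for 10 min before the cord was removed, a step that washes blood out of the vessels. The other 17 arrays serve here to place single genes and to estimate the spread: 14 treated contused arrays (clenbuterol, a beta-adrenergic agonist, at 150 mg/kg, X-rays at 10 Gy or the antioxidant tempol at 275 mg/kg, each given 20 min after the injury, BSO, which blocks glutathione synthesis, at 150 mg/kg given 24 h before it, and tempol with BSO) and 3 arrays of laminectomy, the removal of the bone over the cord. Strain, sex and age of the rats are not given in the sources used here. Nor do the labels say whether arrays come from different rats, so the p-values reflect only how these samples spread, which may be technical.

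A contusion tears small vessels and kills cells at the impact, and blood then enters the tissue. Over the following day neutrophils and monocytes move in along chemokines, small secreted proteins that attract leukocytes, while astrocytes and microglia become activated. Neurons and oligodendrocytes, the cells that make myelin, are lost at and around the site. Because a block of cord holds all of these cells at once, fewer cells of a type and less RNA per cell cannot be told apart in such arrays.

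The unit of measurement is the deposited signal of a probe set, a group of short probes on the array for one transcript, and differences are given as log2 of contusion over normal with their standard errors. The contusion arrays correlated with each other at 0.785 across all probe sets, normal 2 and normal 3 at 0.793, and contusion and normal 2 or 3 at 0.766 to 0.789, so over all probe sets the correlations between the groups were close to those within them. Normal 1 stood apart, with correlations of 0.706 and 0.685 to the other normal arrays and 0.676 and 0.675 to the contusion arrays. In normal 1 the 3′ control probe set of GAPDH exceeded the 5′ one by 1.49 on the log2 scale, against 0.27 and 0.33 in the contusion arrays and 0.25 and 0.50 in normal 2 and 3. The same ratio of beta-actin was -0.06 and 0.40 in the contusion arrays, against 0.55, 0.29 and 0.01 in normal 1, 2 and 3, and that of hexokinase was -2.01 and 3.03 in the contusion arrays, against 2.82, 0.59 and -0.46 in normal 1, 2 and 3. Among these 5 arrays normal 1 was highest for GAPDH and beta-actin and contusion 2 for hexokinase. Such ratios are a sign of RNA quality, and their part in the results was not tested. The median of all probe sets was 0.0099 higher in contusion on the log2 scale. The median standard error was 0.757 for 2 arrays against 3, and this number of arrays limits the precision of every value below.

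Of 31042 probe sets tested with limma, 14 (0.0451%) were higher in contusion and 1 (0.00322%) was lower at an adjusted p under 0.05. An unadjusted p under 0.05 was found for 969 that were higher and 1094 that were lower. Of the 15 probe sets 12 carry a single gene symbol. As few probe sets passed, a second, descriptive measure was used for groups of genes: a gene is said to stand apart when both contusion arrays lie on one side of all 3 normal arrays and the group means differ at least 2-fold. With 1 probe set per gene, 928 of 14217 genes (6.53%) stood apart as higher and 912 (6.41%) as lower, and each group below is read against these shares. Without normal 1 these counts were 1264 (8.89%) and 1124 (7.91%). No test belongs to that measure. By direction alone, 7303 of the 14217 genes were higher in contusion and 6914 were lower.

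**Figure D1:**
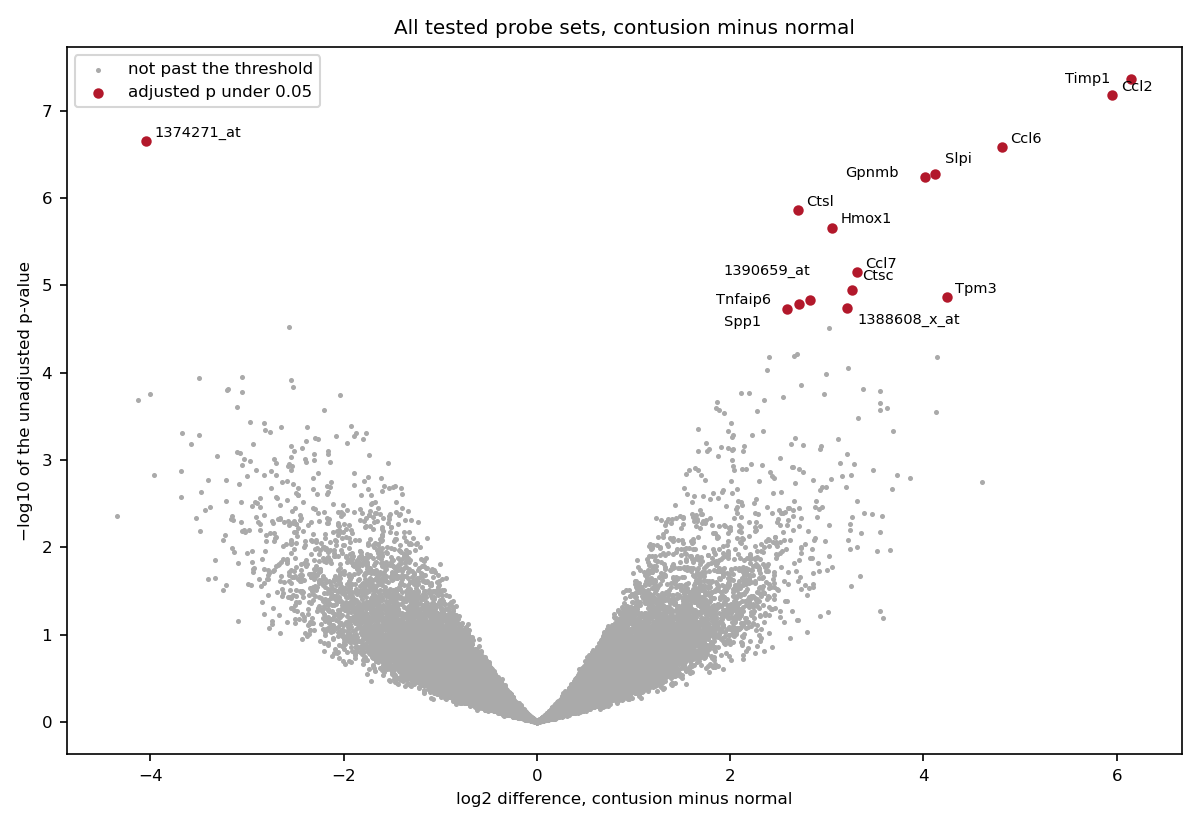
Every tested probe set by its log2 difference, contusion minus normal (horizontal axis), and the negative log10 of its unadjusted limma p-value (vertical axis). The 15 red points passed an adjusted p of 0.05, with 14 on the higher side led by Timp1 and Ccl2 and 1 on the lower side, while the grey points spread about evenly to both sides.

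The chemokines among them act on monocytes. Ccl2, the main ligand of the monocyte receptor Ccr2, had a signal of 2239.6 and 2307 in the contusion arrays, against 40.0, 52.9 and 23.2 in the normal arrays. That is a log2 difference of 5.96 ± 0.70 (limma adjusted p = 0.00104), and no array of one group came near the other. Ccl7, a second ligand of Ccr2, had 442 and 364 in the contusion arrays, against 69.9, 52.9 and 17.8 in the normal arrays, a difference of 3.31 ± 0.54 (adjusted p = 0.0243). Ccl6, a rodent chemokine that acts through Ccr1, had 804 and 1295 in the contusion arrays, against 63.8, 24.6 and 30.4 in the normal arrays, which gives 4.81 ± 0.62 (adjusted p = 0.00203). For all 3 the groups did not overlap, and the normal signals lay below the median signal of their arrays.

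Protease inhibitors come next. Timp1, a secreted inhibitor of matrix metalloproteinases, had 5995 and 9571 in the contusion arrays, against 216, 80.9 and 69.4 in the normal arrays, a log2 difference of 6.15 ± 0.70 (adjusted p = 0.00104) and a 71.1-fold ratio. Slpi, an inhibitor of neutrophil elastase, had 3977 and 5028 in the contusion arrays, against 216, 198 and 399 in the normal arrays, which gives 4.12 ± 0.55 (adjusted p = 0.00295). Both were high in each contusion array and low in each normal array.

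A further set belongs to phagocytes and lysosomes. Gpnmb, a membrane glycoprotein of lysosome-rich phagocytes, had 3715 and 2240.4 in the contusion arrays, against 354, 122 and 132 in the normal arrays, a difference of 4.01 ± 0.54 (adjusted p = 0.00295). Spp1 encodes osteopontin, a secreted phosphoprotein made by macrophages, and had 2616 and 2465 in the contusion arrays, against 384, 447 and 442 in the normal arrays, with 2.58 ± 0.46 (adjusted p = 0.039). The normal values of Spp1 lay within a narrow range. The lysosomal protease cathepsin L (Ctsl, probe set 1370244_at) had 1080.3 and 855 in the contusion arrays, against 152, 187 and 114 in the normal arrays, a difference of 2.70 ± 0.39 (adjusted p = 0.00607). Cathepsin C (Ctsc, probe set 1374778_at), which activates the serine proteases of leukocyte granules, had 323 and 338 in the contusion arrays, against 28.8, 46.4 and 31.0 in the normal arrays, a difference of 3.26 ± 0.55 (adjusted p = 0.0356). For both cathepsins the brighter probe set of the gene gave a smaller difference that did not pass, 1.72 ± 0.49 for Ctsl and 2.33 ± 0.83 for Ctsc.

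The remaining probe sets are of several kinds. Hmox1, the inducible enzyme that splits heme, had 2058 and 1877 in the contusion arrays, against 120.1, 338 and 327 in the normal arrays, a difference of 3.05 ± 0.45 (adjusted p = 0.0085). Tnfaip6, a secreted protein that binds hyaluronan, had 485 and 512 in the contusion arrays, against 87.2, 119.8 and 41.7 in the normal arrays, with 2.72 ± 0.47 (adjusted p = 0.039). One probe set of Tpm3, an actin-binding tropomyosin, had 156 and 352 in the contusion arrays, against 6.8, 14.6 and 19.2 in the normal arrays, with 4.24 ± 0.73 (adjusted p = 0.0383), while the other 11 probe sets of that gene gave 0.02 to 2.32. The probe set 1390659_at, with no symbol, had 710.3 and 962 in the contusion arrays, against 133, 200.1 and 59.0 in the normal arrays, with 2.83 ± 0.49 (adjusted p = 0.0384). For 1388608_x_at, with several symbols, the signals were 4613 and 6442 in the contusion arrays, against 1035, 605 and 328 in the normal arrays, with 3.21 ± 0.56 (adjusted p = 0.039). The only probe set that fell, 1374271_at, has no symbol. Its signal was 21.3 and 15.3 in the contusion arrays, against 319, 276 and 298 in the normal arrays, a difference of -4.04 ± 0.51 (adjusted p = 0.00203).

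**Figure D2:**
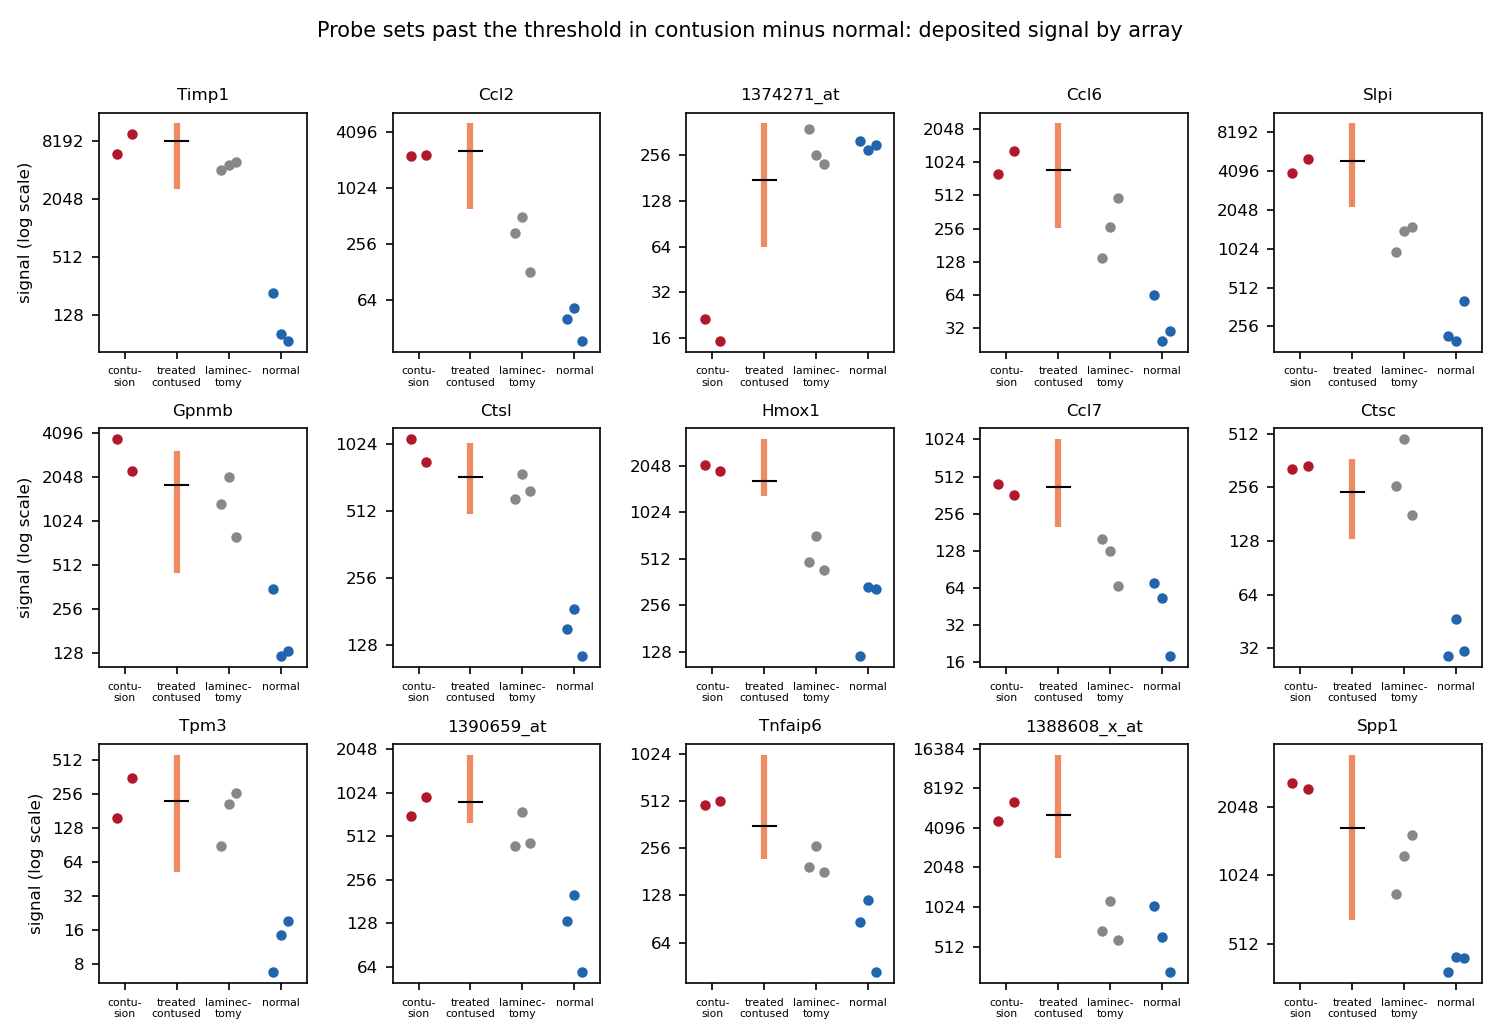
Deposited signal (log scale) of the 15 probe sets past the threshold, by group. Points are single arrays of the 2 contusion, 3 laminectomy and 3 normal samples, and the orange bar runs from the lowest to the highest of the 14 treated contused arrays with a black line at their median. In every panel the contusion and normal points are separate, and 1374271_at is the only panel in which contusion is lower.

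With so few arrays, single samples decide many of these calls. Only Timp1 and Ccl2 passed whichever of the 5 arrays was left out, with a highest adjusted p of 0.0484 without contusion 2. Without contusion 1 the calls that remained were those of Timp1, Ccl2, Ccl6 and 1374271_at (adjusted p = 0.0281 each), and without contusion 2 they were those of Timp1, Ccl2 and Gpnmb (0.0484 each). Without normal 1 the calls of Ctsc (0.0998), Tpm3 (0.116), 1390659_at (0.0725), Tnfaip6 (0.0725) and Spp1 (0.105) were lost. Without normal 2 those of Ctsc (0.0532), Tpm3 (0.0972), 1388608_x_at (0.114) and Spp1 (0.113) were lost. Without normal 3 those of Ccl7 (0.0854), Ctsc (0.111), Tpm3 (0.0565), 1390659_at (0.140), Tnfaip6 (0.149), 1388608_x_at (0.149) and Spp1 (0.111) were lost. The direction of all 15 was the same in each of these fits. When the spread was estimated from the 5 compared arrays alone, no probe set passed with limma, Timp1 and Ccl2 included, while 1798 had an unadjusted p under 0.05.

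Promoters are shown for the 5 genes with the smallest p-values that have an entry in the RefSeq table of build GRCr8. Of the 12 named genes 9 have an entry, and Ccl2, Slpi and Hmox1 are named only. Each sequence runs 5′ to 3′ on the gene's own strand, 250 bases before to 50 bases after the annotated start. Capitals mark matches, on either strand, to AP-1 (TGANTCA, the site of Fos and Jun proteins), the antioxidant response element (TGACNNNGC), NF-kB (GGG and CC with any 5 bases between them), C/EBP (TTGCNNAA) and the TATA box (TATAAA).
Timp1, chrX:3771073-3771372, minus strand: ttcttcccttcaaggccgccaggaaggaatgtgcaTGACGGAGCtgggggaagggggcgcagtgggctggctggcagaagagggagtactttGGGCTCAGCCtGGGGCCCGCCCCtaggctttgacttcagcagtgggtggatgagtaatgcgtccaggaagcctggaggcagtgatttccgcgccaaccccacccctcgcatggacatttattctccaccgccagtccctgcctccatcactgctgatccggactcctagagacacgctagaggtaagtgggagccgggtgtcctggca
Ccl6, chr10:68883317-68883616, minus strand: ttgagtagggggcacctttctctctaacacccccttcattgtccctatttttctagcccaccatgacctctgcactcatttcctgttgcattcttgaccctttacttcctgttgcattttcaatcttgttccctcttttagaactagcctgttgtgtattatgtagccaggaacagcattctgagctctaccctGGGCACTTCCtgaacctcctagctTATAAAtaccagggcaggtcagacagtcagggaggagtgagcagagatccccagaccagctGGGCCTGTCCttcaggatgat
Gpnmb, chr4:79340878-79341177, plus strand: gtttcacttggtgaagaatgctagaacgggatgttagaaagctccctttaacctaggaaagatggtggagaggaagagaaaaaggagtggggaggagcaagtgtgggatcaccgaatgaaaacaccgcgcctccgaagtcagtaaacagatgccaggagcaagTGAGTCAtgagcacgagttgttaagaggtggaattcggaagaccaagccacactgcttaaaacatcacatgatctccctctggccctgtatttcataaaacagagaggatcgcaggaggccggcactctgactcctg
Ctsl, chr17:769854-770153, plus strand: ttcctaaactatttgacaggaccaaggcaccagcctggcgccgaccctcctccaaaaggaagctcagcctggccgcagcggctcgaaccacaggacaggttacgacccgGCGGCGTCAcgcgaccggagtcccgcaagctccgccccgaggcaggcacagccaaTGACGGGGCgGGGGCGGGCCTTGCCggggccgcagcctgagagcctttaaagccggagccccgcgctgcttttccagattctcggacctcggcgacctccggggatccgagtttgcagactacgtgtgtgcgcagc
Ccl7, chr10:67513845-67514144, plus strand: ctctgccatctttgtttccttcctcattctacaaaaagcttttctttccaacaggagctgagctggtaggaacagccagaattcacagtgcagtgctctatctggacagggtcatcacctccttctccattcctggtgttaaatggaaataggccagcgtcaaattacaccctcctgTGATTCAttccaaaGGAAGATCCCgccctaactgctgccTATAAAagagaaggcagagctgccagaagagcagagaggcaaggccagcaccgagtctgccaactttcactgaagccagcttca
An AP-1 match was present in Gpnmb (TGAGTCA, 87 bases before the start) and Ccl7 (TGATTCA, 73 bases before it), against 7.33% of all 33469 promoters in the table. An antioxidant response element match was present in Timp1 and Ctsl (12.1% of all promoters), and an NF-kB match in Timp1, Ccl6, Ctsl and Ccl7 (47.3%). The 5 NF-kB matches of Timp1 overlap one another in part, as do the 2 of Ctsl. A TATA box lies 32 bases before the start in Ccl6 and 34 bases before it in Ccl7 (14.2% of all promoters). None of the 5 holds the C/EBP letters (10.6% of all promoters). These matches describe the letters of the windows and nothing was measured on the binding of a factor.

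The 20 named genes with the next smallest p-values did not pass, with adjusted p-values of 0.0571 to 0.167. Among those with higher values, S100a4, a small calcium-binding protein, had 2899 and 3673 in the contusion arrays, against 934, 391 and 178 in the normal arrays, a difference of 3.02 ± 0.55 (adjusted p = 0.0571). Arg1, which splits arginine and marks one state of macrophages, had 895 and 778 in the contusion arrays, against 82.8, 189.8 and 138 in the normal arrays (2.69 ± 0.52). C5ar1, the receptor for the complement fragment C5a on neutrophils and macrophages, had 623 and 745 in the contusion arrays, against 10.2, 74.9 and 75.8 in the normal arrays (4.14 ± 0.81). Ldha, the lactate dehydrogenase subunit of glycolytic tissue, had 2265 and 2478 in the contusion arrays, against 496, 234 and 448 in the normal arrays (2.66 ± 0.52). In each of these genes both contusion arrays lay above all normal arrays. Il33, an alarmin released by damaged cells, differed by 2.74 ± 0.57, the lysosomal tetraspanin Cd63 by 3.37 ± 0.71 and Mgst2, a microsomal glutathione transferase, by 2.20 ± 0.47. Among those with lower values, Cldn10, a claudin of tight junctions, had 50.2 and 77.8 in the contusion arrays, against 301, 441 and 384 in the normal arrays (-2.57 ± 0.47, adjusted p = 0.0571), the smallest p-value among genes that did not pass. Several of these genes have another probe set that does not show the same difference: 0.05 for Anxa2 (against 2.38 ± 0.48), -0.70 and 0.89 for Fgf1 (against -3.20 ± 0.68), and -1.05 and 0.52 for Slit2, whose contusion signals of 2.7 and 3.3 are among the lowest on the arrays (against -4.01 ± 0.86).

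Genes of neutrophils and of their attraction were higher as a group. Of 13 measured members 1, Slpi, passed the test, 7 stood apart as higher and none as lower, and the median log2 difference was 1.80, against 0.03 over all genes. It lay at 1.39 to 2.53 with each array left out in turn. S100a9 and S100a8, which form the main calcium-binding complex of neutrophil cytosol, differed by 3.32 ± 0.76 and 2.43 ± 0.74, and S100a9 had 634 and 1267 in the contusion arrays, against 165, 26.4 and 166 in the normal arrays. Cxcl2 and Cxcl1, chemokines that draw neutrophils through Cxcr2, differed by 3.55 ± 0.76 and 2.33 ± 0.88. Cxcl2 had 512 and 849.7 in the contusion arrays, against 23.3, 102 and 75.9 in the normal arrays. Lcn2, an iron-carrier-binding protein of neutrophil granules that reactive astrocytes also make, had 229.7 and 438 in contusion, against 69.6, 211 and 49.9 in normal cord (1.81 ± 0.66). All 5 genes stood apart, with contusion arrays above every normal array. The summed signal of the list was 6642 to 9293 in contusion, against 1075 to 1403 in normal cord. Mpo, Ngp, Elane, Ltf, Fpr1 and Fpr2, which also mark these cells, are not analysed here.

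Among 22 monocyte chemokine ligands, the 3 already described passed, 6 stood apart as higher and 2 as lower. In all 15 were higher and 7 lower, with a median of 0.23 that was 0.13 without normal 1. Ccl9, a rodent ligand of Ccr1, had 477 and 336 in the contusion arrays, against 41.2, 125 and 108 in the normal arrays (2.28 ± 0.70). Ccl3, which also binds Ccr1, had 303 and 423 in the contusion arrays, against 27.1, 196 and 116 in the normal arrays (2.07 ± 0.70). The receptor Ccr1 itself had 106 and 135 in the contusion arrays, against 13.8, 6.1 and 14.5 in the normal arrays (3.48 ± 0.92), and its difference was 1.81 when 32 was added to the signal before the log. The normal signals of Ccr1 lie near the bottom of the range. For Ccl3, Ccl9 and Ccr1 both contusion arrays were above the normal range. Ccr2, the receptor of Ccl2 and Ccl7, had 253 and 250.4 in contusion, against 218, 124 and 239.5 in normal cord (0.43 ± 0.67), a difference below 2-fold. Cx3cl1, the membrane-bound chemokine that neurons make, was on the opposite side with 460.5 and 246 in the contusion arrays, against 710.5, 1178 and 1350.1 in the normal arrays (-1.63 ± 0.67).

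Macrophage markers had a median difference of 1.29 over 18 measured genes, of which Gpnmb and Spp1 passed and 9 stood apart as higher, with none lower. Lgals3, the galectin of phagocytic macrophages, had 4308 and 4508 in the contusion arrays, against 1212, 1067 and 279 in the normal arrays (2.63 ± 0.65). Lyz2, lysozyme, had 10504 and 10838 in the contusion arrays, against 3808, 2555 and 2564 in the normal arrays (1.87 ± 0.41). Plin2, which coats lipid droplets, had 1910.5 and 2621 in the contusion arrays, against 511, 757 and 608 in the normal arrays (1.86 ± 0.41). The summed signal was 28895 to 30709 in contusion, against 8073 to 16959.6 in normal cord. After laminectomy it was 17194 to 40489. Laminectomy 2 alone lay above the contusion range, and laminectomy 1 and 3 lay below both contusion arrays. Of 11 microglia markers 1 stood apart as higher and 0 as lower (3 and 1 without normal 1), the median was 0.08 and lay at -0.09 to 0.45 with each array left out, and their summed signals overlapped, at 3265 to 4410.0 in contusion against 3631 to 4656 in normal cord. The 2 lists were not tested against each other. Aif1, a marker of both cell types, had 1296 and 914 in contusion, against 688, 1304 and 1559 in normal cord (-0.04 ± 0.92, and 1.04 in another probe set). Csf1r, the receptor on which both depend, had 299 and 1050.0 in contusion, against 643, 1822 and 1358 in normal cord. Lymphocyte markers had a median of 0.01 (0.04 to 0.26 with each array left out), with 0 of 14 standing apart as higher and 1 as lower (2 and 2 without normal 1), and summed signals of 3156 to 3405 in contusion against 2508 to 3719.8 in normal cord.

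Lysosomal genes gave a median of 0.90 over 15 members, with 6 standing apart as higher and 1 as lower, and 0.45 without normal 3. In all 9 members were higher and 6 lower. Their summed signal was 21972 to 22006.5 in contusion, inside the range of 14480 to 37745 in normal cord. The protease legumain (Lgmn) had 1499 and 1220.1 in the contusion arrays, against 645, 362 and 162 in the normal arrays (2.01 ± 0.55, and 0.49 in another probe set). Cystatin B (Cstb), an inhibitor of cathepsins inside cells, had 1765 and 2204 in the contusion arrays, against 718, 762 and 933 in the normal arrays (1.30 ± 0.44). Cystatin C (Cst3), the secreted inhibitor that microglia and astrocytes make in quantity, lay on the other side with 2481 and 2838 in the contusion arrays, against 12343, 4984 and 4026 in the normal arrays (-1.24 ± 0.51). Of 15 S100 and annexin genes, 7 stood apart as higher and none as lower (median 0.87, 0.48 without contusion 1 and 1.42 without contusion 2). Their summed signal was 24328 to 29550.5 in contusion and 8756 to 14464 in normal cord, but 19725 to 30741 after laminectomy. Laminectomy 2 alone lay above the contusion range, and laminectomy 1 and 3 lay below both contusion arrays. S100a6 had 3554 and 3562 in the contusion arrays, against 1949, 929 and 824 in the normal arrays (1.64 ± 0.51), S100a10 differed by 1.58 ± 0.55, and Anxa1, the annexin released by leukocytes, by 2.09 ± 0.85.

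Of 7 measured red cell genes 6 were higher in contusion and 1 was lower. Hbb and Alas2 stood apart as higher and Klf1 as lower. Hbb, the beta chain of globin, had 3393 and 8327 in the contusion arrays, against 1014, 812 and 227 in the normal arrays (3.22 ± 0.65). Alas2, the heme-synthesis enzyme of red cell precursors, had 360.3 and 297 in the contusion arrays, against 205, 37.9 and 130.5 in the normal arrays (1.70 ± 0.62). In contrast Klf1, the transcription factor of red cell precursors, had 67.5 and 30.4 in contusion, against 69.5, 287 and 259.6 in normal cord (-1.93 ± 1.03). The median of the 7 measured members was 1.15, and 0.77 without contusion 1. All these values come from perfused cords. Beside Hmox1, ceruloplasmin (Cp), the copper protein that oxidises iron, had 943 and 1104 in the contusion arrays, against 385, 56.6 and 55.1 in the normal arrays (3.26 ± 1.01, with 2.20 and 0.25 in 2 other probe sets). Of the 14 heme and iron genes 2, Hmox1 and Cp, stood apart as higher and none as lower, and the median was 0.11, with -0.33 without normal 3, -0.10 without normal 1 and 0.22 without contusion 2. The constitutive heme oxygenase Hmox2 had 155 and 204 in contusion, against 479, 485 and 185 in normal cord (-0.98 ± 0.80).

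Complement genes lay on both sides. The 13 measured components and regulators had a median of -0.54 (-0.13 when 32 was added to the signal, and -1.15 over probe sets with a mean log2 signal of at least 6), with 2 standing apart as higher and 3 as lower. C3, the central component, had 147 and 32.2 in the contusion arrays, against 699.7, 268 and 266 in the normal arrays (-2.42 ± 0.71). C1s, a protease of the first complex, differed by -1.25 ± 0.61, and its inhibitor Serping1 by -1.72 ± 0.97. On the higher side stood C5ar1 and the decay-accelerating factor Cd55 (1.23 ± 0.60, and 0.70 in another probe set). Genes that sense bacterial lipopolysaccharide or report NF-kB activity had a median of 0.62 over 20 (0.32 without contusion 1). Cd14, the co-receptor of Tlr4, had 383 and 517 in the contusion arrays, against 91.1, 186 and 186 in the normal arrays (1.60 ± 0.47). Tlr2 had 335 and 414 in the contusion arrays, against 72.9, 309 and 91.2 in the normal arrays (1.55 ± 0.66).

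In the matrix, 7 of 20 collagens, laminins and matrix builders stood apart as higher and none as lower (median 0.60). Fn1, fibronectin, had 1630.2 and 1724 in the contusion arrays, against 744, 453 and 589.5 in the normal arrays (1.52 ± 0.43). Lox, the enzyme that crosslinks collagen, had 1382 and 708 in the contusion arrays, against 288, 118 and 341 in the normal arrays (2.13 ± 0.56). The fibrillar collagen gene Col1a1 of scar tissue did not stand apart, with 600.1 and 646 in contusion, against 392, 489 and 498 in normal cord (0.45 ± 0.52, and -0.61 in another probe set). Of the proteoglycan and tenascin genes, Tnc, tenascin C, had 238 and 488 in the contusion arrays, against 36.1, 84.6 and 174 in the normal arrays (2.07 ± 0.63). Vcan, versican, had 262 and 350.5 in the contusion arrays, against 32.7, 57.1 and 85.4 in the normal arrays (2.48 ± 0.78, and 1.10 and -0.52 in 2 of its other probe sets). On the lower side Bcan, the brevican of the nets around neurons, had 561 and 536 in the contusion arrays, against 3729, 2019 and 1102 in the normal arrays (-1.89 ± 0.64, and -0.56 in another probe set). Among 22 metalloproteinases and their inhibitors, Timp1 alone passed, 3 stood apart as higher and none as lower, and the median was 0.36, with 0.16 without normal 1, 0.21 without contusion 1 and 0.65 without contusion 2.

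Astrocyte genes divided by what they are known for. Genes of the reactive state had a median of 1.71 over 17 members (1.09 without contusion 2), and 9 stood apart as higher, Timp1 among them. The intermediate filament gene Vim had 3600.1 and 2366 in the contusion arrays, against 1859.8, 1607 and 232 in the normal arrays (1.72 ± 0.72). Nes, nestin, had 718 and 406 in the contusion arrays, against 69.6, 195 and 188 in the normal arrays (1.98 ± 0.72). Gfap, the filament protein by which reactive astrocytes are usually stained, had overlapping groups, with 12101 and 12442 in contusion, against 12396, 9952 and 13415 in normal cord (0.05 ± 0.42). Hspb1, a small heat shock protein of reactive astrocytes, had 656 and 271 in the contusion arrays, against 205, 68.8 and 99.0 in the normal arrays (1.92 ± 0.54). Emp1, a membrane protein, differed by 1.71 ± 0.52. The summed signal of the reactive list was 28352 to 33352 in contusion, 40863 to 63178 after laminectomy and 14839 to 17826 in normal cord.

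Genes of the resting astrocyte pointed the other way. Of 16 measured, 6 stood apart as lower and 1, Slc1a2 (2.52 ± 1.22, and -0.09 in another probe set), as higher, with a median of -0.75. The water channel Aqp4 had 1538 and 2584 in the contusion arrays, against 6200.5, 10257 and 5205 in the normal arrays (-1.79 ± 0.49), though 2 dimmer probe sets gave -0.85 and 0.24. The bicarbonate transporter Slc4a4 had 149.8 and 142 in the contusion arrays, against 1033, 647 and 452 in the normal arrays (-2.20 ± 0.49, and -0.38 in another probe set). The glycolytic enzyme Aldoc had 2015 and 3161 in the contusion arrays, against 10856, 6697 and 4671 in the normal arrays (-1.47 ± 0.56). For the gap junction genes Gjb6 and Gja1 the differences were -2.33 ± 0.94 and -1.59 ± 0.61, with -1.32 and 0.55 in 2 other probe sets of Gja1. None of these passed the test.

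**Figure D3:**
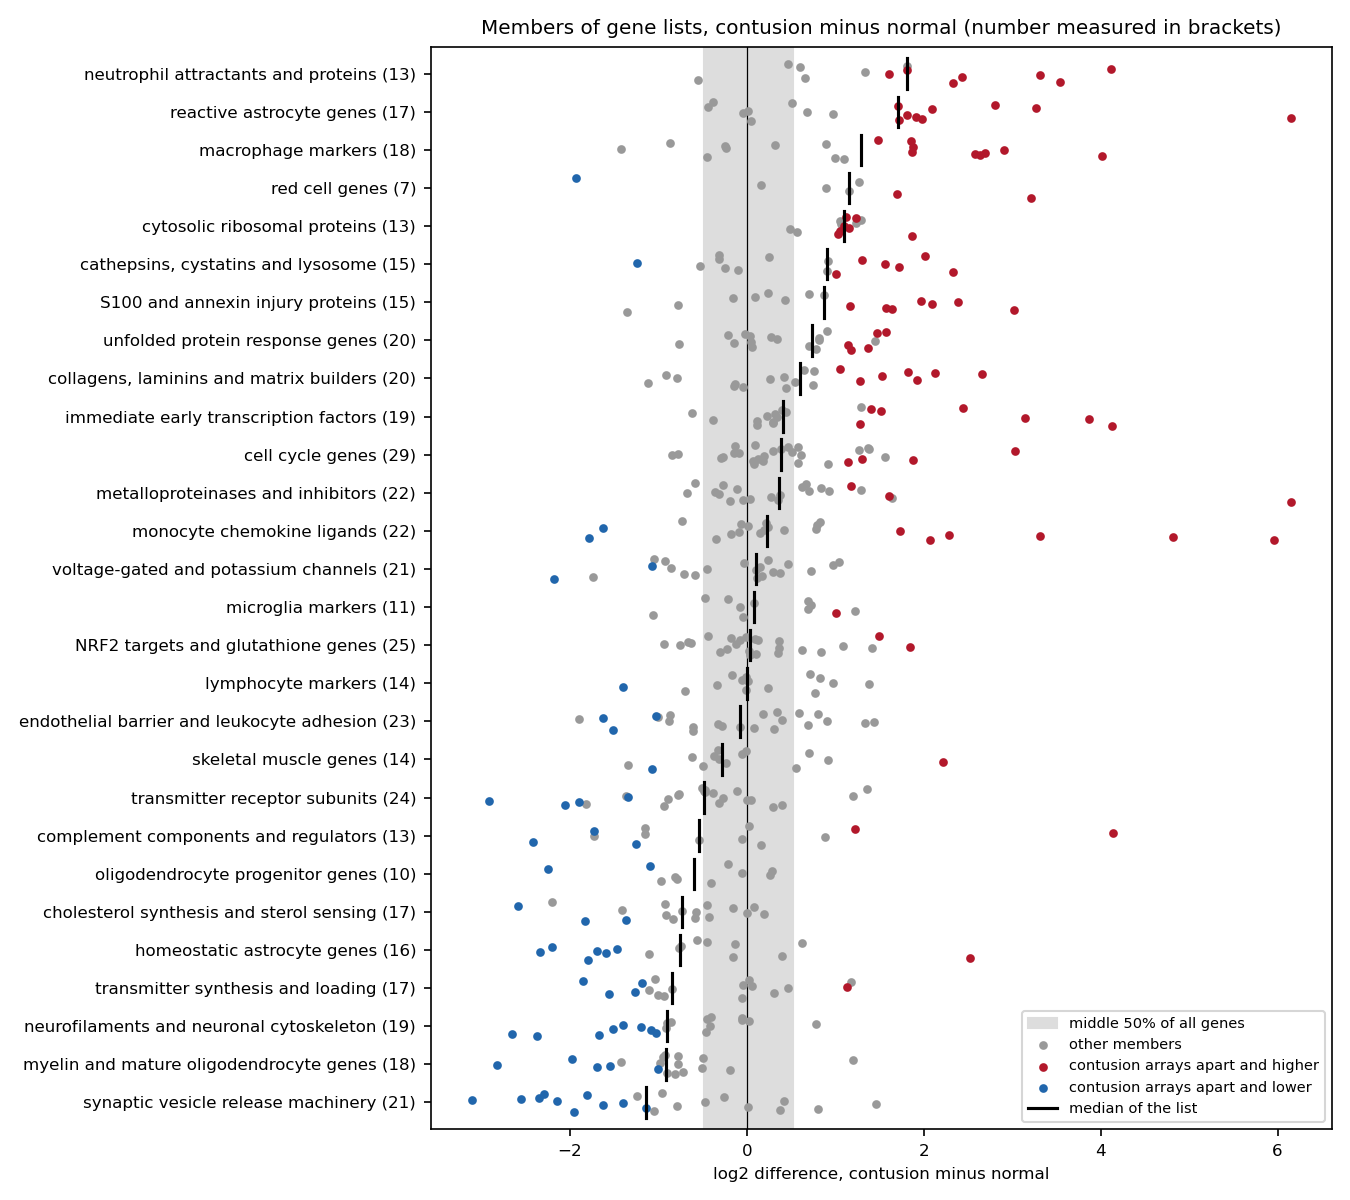
Log2 difference, contusion minus normal, of the measured genes of 28 lists, with 1 point per gene and a black line at the median of each list. Red and blue points stand apart as higher and lower, grey points do not, and the shaded band holds the middle 50% of all genes. Neutrophil, reactive astrocyte and macrophage medians lie farthest to the right and synaptic, myelin and neurofilament medians farthest to the left.

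Without normal 1, a choice made after the data were seen, the genes standing apart as higher numbered 9 of 13 for neutrophils, 10 of 18 for macrophages, 9 of 17 for reactive astrocytes and 11 of 13 for ribosomes. Those standing apart as lower numbered 10 of 21 for synaptic genes, 7 of 19 for neurofilament genes, 4 of 18 for myelin, 6 of 16 for resting astrocytes and 2 of 17 for cholesterol synthesis. On the opposite side of these lists, 1 synaptic, 1 neurofilament and 1 resting astrocyte gene stood apart as higher and 1 macrophage gene as lower.

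Synaptic genes had the lowest median of the 48 lists. Of 21 genes of synaptic vesicle release 10 stood apart as lower and none as higher, with a median of -1.14 that lay at -1.57 to -1.02 with each array left out. Cplx1, the complexin that holds vesicles ready for fusion, had 822 and 1071 in the contusion arrays, against 9304, 3679.8 and 4831 in the normal arrays (-2.55 ± 0.53, adjusted p = 0.14). Rab3a, the small GTPase on synaptic vesicles, had 103 and 254 in the contusion arrays, against 2194, 1029.9 and 1201 in the normal arrays (-3.11 ± 0.69, adjusted p = 0.167). Snap25, a part of the fusion complex, had 870.2 and 3129 in the contusion arrays, against 8666, 5107 and 5855 in the normal arrays (-1.95 ± 0.62). Sncb, beta-synuclein, had 191 and 599 in the contusion arrays, against 2848, 1236 and 1296 in the normal arrays (-2.30 ± 0.55, and -0.62 in a dimmer probe set). In all 4 the contusion arrays lay below every normal array, and contusion 1 was below contusion 2. The summed signal of the list was 8325 to 15774 in contusion, against 26317 to 44786 in normal cord.

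Neurofilament and neuronal cytoskeleton genes had a median of -0.90 over 19 members, 8 of which stood apart as lower and none as higher. The heavy, light and medium neurofilament chains, which fill the calibre of large axons, are Nefh, Nefl and Nefm. Nefh had 797 and 2704 in the contusion arrays, against 15189, 8282 and 6208 in the normal arrays (-2.65 ± 0.62). Nefl had 1082 and 1047 in the contusion arrays, against 7743, 4932 and 4421 in the normal arrays (-2.38 ± 0.56). For Nefm the signals were 532 and 1584 in the contusion arrays, against 2834, 3612 and 2453 in the normal arrays (-1.67 ± 0.57), so all 3 chains stood apart. Stmn3, a regulator of microtubules in neurons, differed by -1.40 ± 0.39, Map2 of dendrites by -1.51 ± 0.55 (-0.56 in another probe set) and the neuronal tubulin Tubb3 by -1.20 ± 0.44 (0.26 in another probe set). In all 17 of the 19 members were lower. The smallest adjusted p in the list was 0.22.

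Transmitter genes gave a median of -0.85 over 17 for synthesis and loading, which was -0.27 without contusion 2, and of -0.48 over 24 for receptor subunits. Among inhibitory genes, Gad1, which makes GABA, had 83.7 and 166 in the contusion arrays, against 490.2, 277 and 308 in the normal arrays (-1.56 ± 0.58). Slc32a1, which loads GABA and glycine into vesicles, had 108 and 228 in the contusion arrays, against 448, 326 and 367 in the normal arrays (-1.27 ± 0.62). Glrb, the anchoring subunit of glycine receptors, had 115 and 206 in the contusion arrays, against 1242, 562 and 374 in the normal arrays (-2.06 ± 0.63, with -0.32 and -0.95 in dimmer probe sets), and Gabrb1, a GABA receptor subunit, had 34.1 and 70.2 in the contusion arrays, against 488, 862 and 118 in the normal arrays (-2.91 ± 0.90). Slc17a6, the vesicular glutamate transporter of the cord, had 601 and 663 in contusion, against 1392, 964 and 1089 in normal cord (-0.85 ± 0.42). Penk, the enkephalin precursor of dorsal horn neurons, had 718 and 1043 in the contusion arrays, against 2233, 1816 and 1878 in the normal arrays (-1.19 ± 0.45). Sst, somatostatin, had 85.5 and 89.3 in the contusion arrays, against 338, 338 and 277 in the normal arrays (-1.86 ± 0.96). Motor neuron genes gave no clear value: Chat, which makes acetylcholine, had 24.8 and 104 in contusion, against 54.7, 94.8 and 28.2 in normal cord. Slc18a3, which loads it, had 247 and 71.5 in contusion, against 443, 256 and 146 in normal cord.

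**Figure D4:**
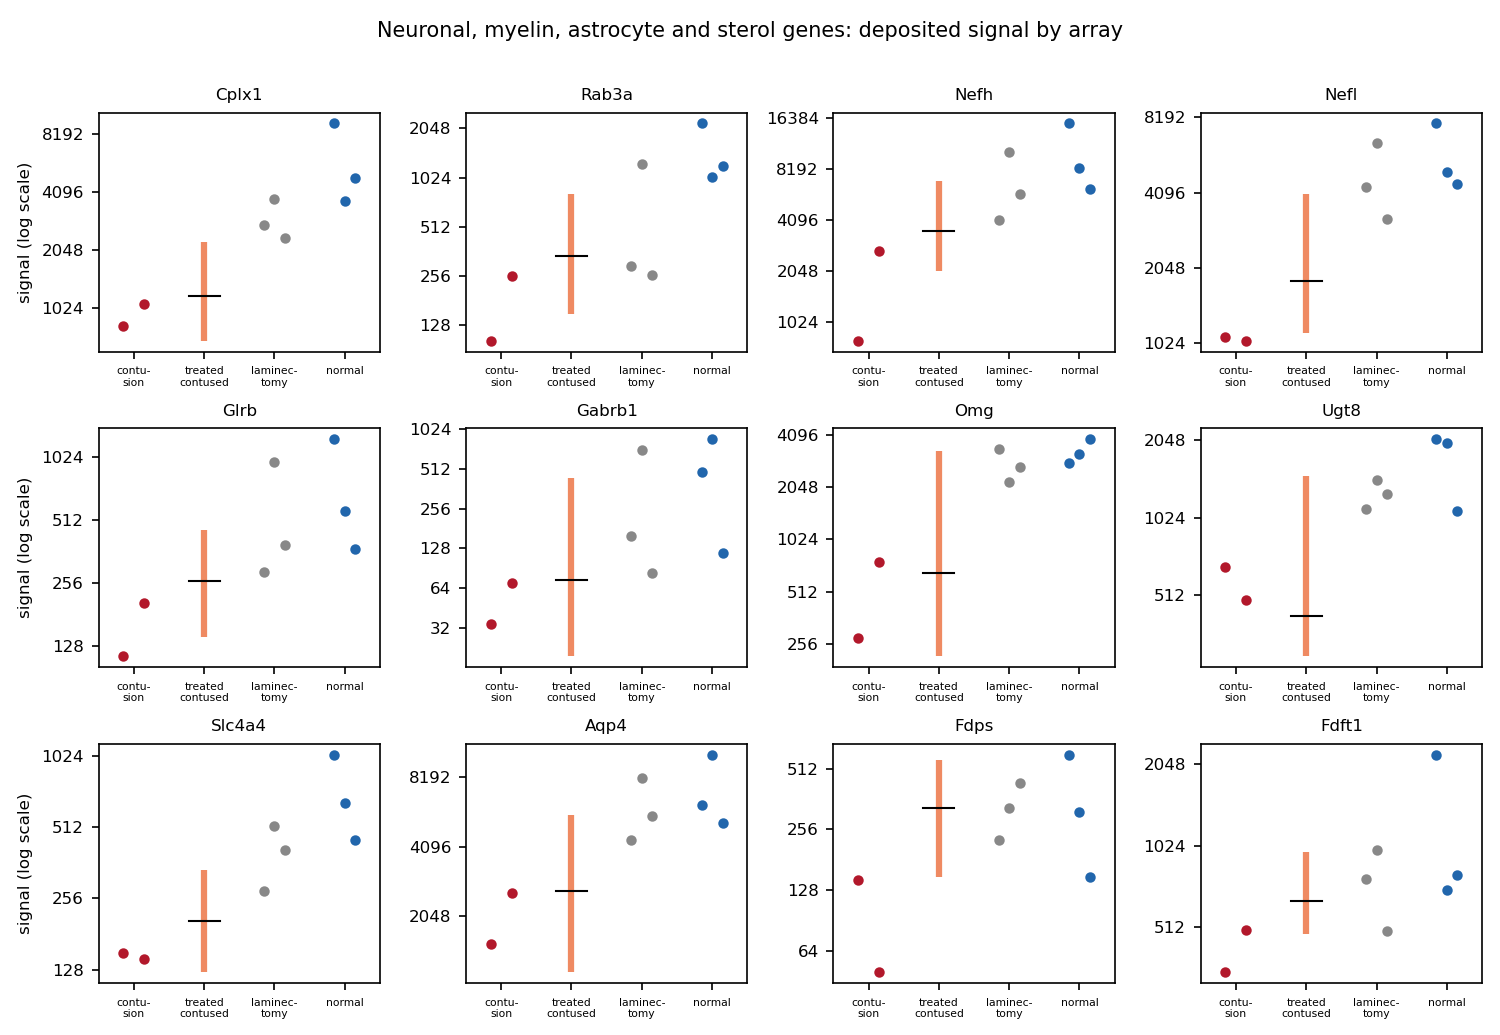
Deposited signal (log scale) of 12 genes from 6 lists with lower medians in contusion: synaptic (Cplx1, Rab3a), neurofilament (Nefh, Nefl), receptor (Glrb, Gabrb1), myelin (Omg, Ugt8), resting astrocyte (Slc4a4, Aqp4) and cholesterol synthesis (Fdps, Fdft1). Points are arrays, the orange bar spans the 14 treated contused arrays with a black line at their median, and in every panel both contusion points lie below the 3 normal points. The genes shown have the smallest limma p-values of their lists, a choice that favours such separation.

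Myelin and mature oligodendrocyte genes had a median of -0.91; 17 of 18 were lower, 5 stood apart and none passed. Omg, a glycoprotein of oligodendrocytes and neurons, had 278 and 757 in the contusion arrays, against 2816, 3171 and 3864 in the normal arrays (-2.83 ± 0.65). Ugt8, which makes the galactolipids of myelin, had 658 and 490.3 in the contusion arrays, against 2074, 1996 and 1090.3 in the normal arrays (-1.54 ± 0.40, and 1.74 in a much dimmer probe set). Mal, a proteolipid of compact myelin, had 314 and 199 in the contusion arrays, against 1418, 976 and 386 in the normal arrays (-1.70 ± 0.53). Mbp, myelin basic protein, had the highest signals of the list and overlapped, with 22148 and 40004 in contusion, against 84707, 45110.4 and 37013 in normal cord (-0.81 ± 0.57). Mag, an adhesion protein of the inner myelin layer, differed by -0.72 ± 0.41. The summed signal was 42362 to 60844 in contusion, against 63852 to 131435 in normal cord, where normal 1 gave the highest value. Progenitor genes had a median of -0.60 over 10 (-0.22 without contusion 1, -0.36 without normal 2), with the transcription factor Olig1 at 857 and 855 in contusion, against 2059.6, 1305 and 1201 in normal cord.

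Genes that make cholesterol, which oligodendrocytes and astrocytes supply to myelin and synapses, were on the same side. Of 17 measured, 15 were lower and 3 stood apart as lower, none as higher, with a median of -0.73 (-0.47 without contusion 1). The squalene-forming enzyme Fdft1 had 348 and 497 in the contusion arrays, against 2222, 701 and 797 in the normal arrays (-1.37 ± 0.50). Fdps, one step before it, had 144 and 50.2 in the contusion arrays, against 599.9, 313 and 149 in the normal arrays (-1.83 ± 0.65). Insig1, the sterol-regulated anchor of the pathway's transcription factor, had 30.9 and 149 in the contusion arrays, against 726, 415 and 225 in the normal arrays (-2.59 ± 0.96). At the blood-brain barrier Cldn5, the claudin of endothelial cells, had 247 and 68.1 in the contusion arrays, against 473, 428 and 250.1 in the normal arrays (-1.51 ± 0.53), while the 23 endothelial and adhesion genes together had a median of -0.07 (-0.22 to 0.01 with each array left out), with 0 higher and 3 lower among those standing apart.

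**Figure D5:**
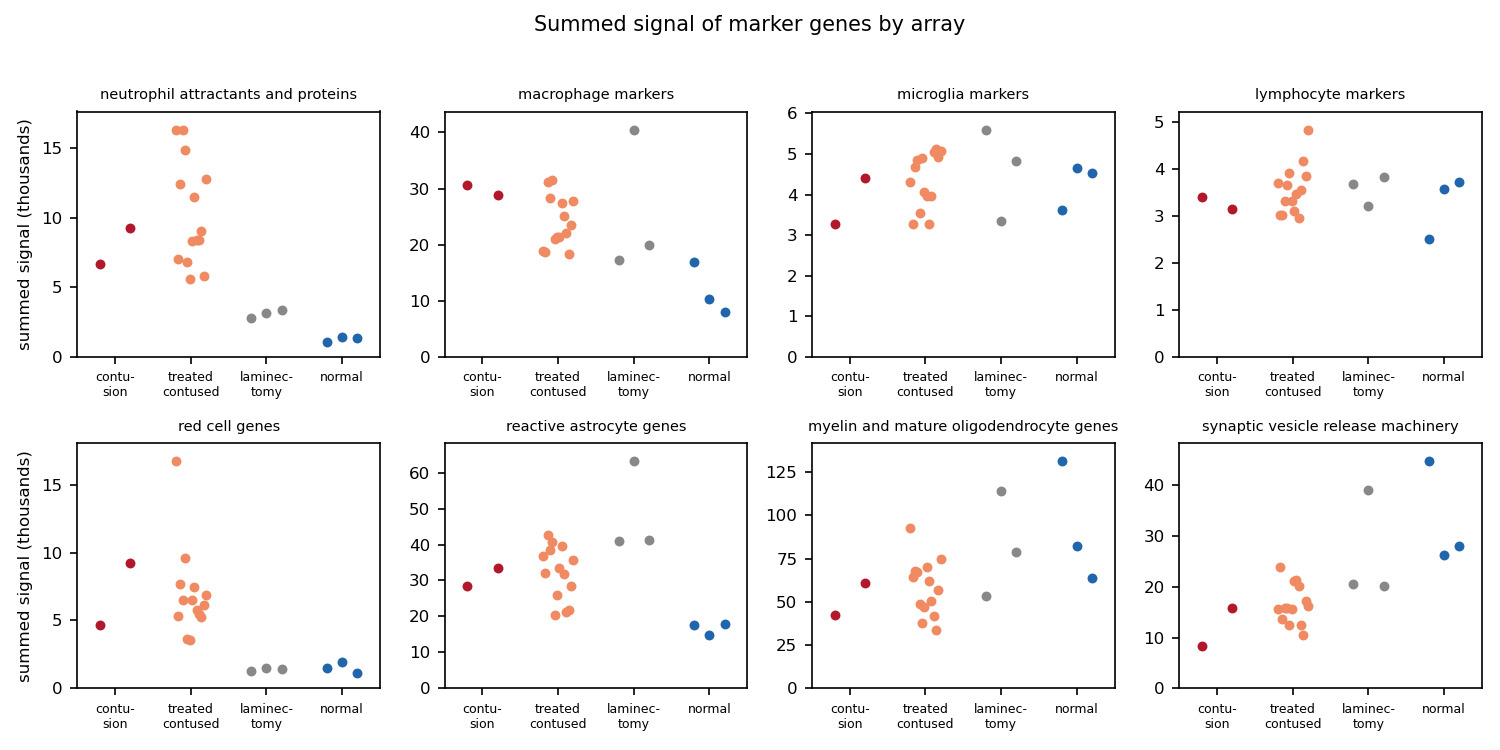
Summed deposited signal (units of 1000 on the axis) over the measured genes of 8 marker lists, with 1 point per array and the groups contusion, treated contused, laminectomy and normal. Neutrophil, macrophage, red cell and reactive astrocyte sums of both contusion arrays lie above all 3 normal arrays, synaptic and myelin sums lie below them, and microglia and lymphocyte sums overlap.

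No stress gene of the next lists passed the test. Of 19 immediate early transcription factors 17 were higher, 7 stood apart as higher and none as lower, and the median was 0.40 (0.81 without contusion 1, 0.68 without normal 2). Fos, a subunit of AP-1, had 277 and 407 in the contusion arrays, against 122, 7.5 and 7.7 in the normal arrays (4.13 ± 0.93), but a second probe set gave -0.49. Atf3, a factor induced in injured neurons, had 80.8 and 72.6 in the contusion arrays, against 3.3, 4.8 and 9.2 in the normal arrays (3.86 ± 1.05). Egr1 had 362 and 373 in the contusion arrays, against 7.9, 75.4 and 122 in the normal arrays (3.14 ± 0.81). The normal signals of these 3 genes include values below 10, at the bottom of the range, and with 32 added to the signal the differences were 2.56 for Fos, 1.53 for Atf3 and 2.20 for Egr1. Unfolded protein response genes had a median of 0.74 over 20, 16 of them higher, 5 standing apart as higher and none as lower. Hspa5, the main chaperone of the endoplasmic reticulum, had 1169.9 and 1339 in the contusion arrays, against 628, 623 and 436 in the normal arrays (1.17 ± 0.52). Its partner Sdf2l1 had 699 and 727 in the contusion arrays, against 199, 340.5 and 248 in the normal arrays (1.48 ± 0.46). The NRF2 and glutathione genes, with which Hmox1 is often grouped, had a median of 0.04 over 25, with 0.36 without normal 1, 0.33 without contusion 2 and -0.06 without contusion 1. Of these genes 2 stood apart as higher, and Nqo1, a classic member, had 1124 and 705 in contusion, against 901, 1088 and 668 in normal cord.

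All 13 measured genes of the cytosolic ribosome were higher in contusion, with a median of 1.10, and 7 stood apart. Rplp0, a protein of the ribosomal stalk, had 3793 and 3339 in the contusion arrays, against 2087, 746 and 592 in the normal arrays (1.87 ± 0.54). Rpl7 had 4086 and 5324 in the contusion arrays, against 2389, 2610.0 and 1462 in the normal arrays (1.16 ± 0.42, and 0.23 in another probe set). None passed the test. The summed signal was 34628 to 42159 in contusion and 12142 to 29590.3 in normal cord, but 22594 to 51615 after laminectomy, which spans the contusion range. Between treated contused and laminectomy arrays the median of these genes was -0.01. Other lists with higher medians in contusion were also below 0 there. The values were -0.07 for reactive astrocyte, -0.10 for S100 and annexin and -0.08 for lysosomal genes. They were -0.06 for unfolded protein response, -0.04 for matrix and -0.12 for cell cycle genes. Above 0 were the medians of neutrophil (1.23), lipopolysaccharide sensing (0.68), red cell (0.41) and macrophage genes (0.335). Ribosomal protein genes have many near-identical pseudogenes, so their probe sets may count more than 1 locus.

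Muscle and nerve root are tissues that a dissection can carry along. The 14 skeletal muscle genes had a median of -0.28 (0.29 without contusion 1) with 1 higher and 1 lower standing apart, and 8 Schwann cell genes had 0.19 with none standing apart (-0.16 without normal 1 and -0.05 without contusion 1). Acta1, the actin of skeletal muscle, had 19.6 and 21.8 in contusion, against 48.3, 44.2 and 38.0 in normal cord. Ckm, the creatine kinase of muscle, had 419.9 and 485 in contusion, against 152, 368 and 521 in normal cord.

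The laminectomy and treated contused arrays, which enter no mean of the comparison, place the called genes further. Of the 15 probe sets, 14 had every treated contused array on the contusion side of all 3 normal arrays, and 12 had every laminectomy array there too. The 15 were chosen against these same normal arrays, which favours such counts. The share over all probe sets was not counted. Ccl2 had 339, 503 and 128 after laminectomy, and the treated contused arrays lay between 612 and 5077 with a median of 2572. Hmox1 had 486, 724 and 435 after laminectomy, with the treated contused arrays between 1308 and 3039 with a median of 1641. Timp1 had 4063, 4642 and 4955 after laminectomy, close to the contusion values, with the treated contused arrays between 2586 and 12369 with a median of 8121. Laminectomy thus lay between the groups for Ccl2 and Hmox1 and near contusion for Timp1. The lower probe set 1374271_at differed from these: it had 384, 257 and 223 after laminectomy and, in treated contused arrays, signals between 63.9 and 416 with a median of 175, all above both contusion arrays.

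The mean of the 5 treated contused groups was also tested against laminectomy, a comparison that shares no array with the first, although the spread is estimated jointly and surgery and treatment differ. Only 4 probe sets (0.0129% of those tested) passed, all higher. Ccl2 was 1 of them, with a difference of 3.03 ± 0.49 (limma adjusted p = 0.0454), and 1388608_x_at another, with 2.88 ± 0.39 (adjusted p = 0.0204). The other 2, 1370240_x_at and 1370239_at, carry no single symbol. Of the 15 probe sets called between contusion and normal, 14 had the same direction. Over all 31042 probe sets 15194 were higher in this comparison. An unadjusted limma p under 0.05, in either direction, was found for 8 of the 15 and for 2319 of all probe sets. Hmox1 differed by 1.72 (adjusted p = 0.114), while Ctsl and Ctsc differed by 0.13 and -0.30. For the cathepsins these differences were smaller than their standard errors of 0.27 and 0.38.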

How the data were processed

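Rat spinal cord RNA was measured on Affymetrix arrays, and the 2 contusion and 3 normal arrays were grouped by the labels. The deposited values are signal intensities on a linear scale, which the authors scaled so that each array shares a mean of about 250 after a 2% trim on both sides, as found from the table. RMA is named per the submitters' processing notes, but the values are not logarithmic. Depth does not apply to arrays, whose number limits the precision.

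The log2 of the intensity was fitted in R 4.3.3 with limma 3.58.1, with 8 group means over all 22 arrays and eBayes, and two-sided p-values were adjusted by Benjamini-Hochberg over 31042 probe sets. The fit, which was tested on simulated data, left out 57 control probe sets, 2 with an empty cell. Of the tested probe sets 20826 carry 1 symbol, 436 several and 9780 none. A gene is represented by its brightest probe set on average. Of 893 genes in 48 lists 786 were measured, 5 by an older symbol or a synonym.

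The members and lists were chosen with earlier results of these data known, so a list's direction is no independent support, and lists share some genes. Genes were named if they passed the threshold, were among the 20 next by p-value, or were among the 6 smallest p-values or first members of their list. Alternatives changed the normalization, transform, filter, spread, array weights, spike covariate, replicate block and arrays used. Replicate numbers were not used to pair arrays in the main fit, since deviations of same-numbered arrays correlated at -0.041 and -0.035.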

Additional observations from a re-analysis of the deposited data

How the results depend on the processing

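The number of probe sets past the threshold between contusion and normal was 15, and it changed with the setting. It was 29 with array weights (27 higher, 2 lower), 23 on log2 of the signal plus 32, 30 with the hybridization spikes as a covariate, 34 with trend and robust moderation and 0 when only the compared arrays entered the fit, which leaves few degrees of freedom. Of the 15, 14 stayed past the threshold on log2 of the signal plus 32 and 15 in the other fits that gave more calls. Quantile normalization and a filter at a mean log2 signal of 6 gave 20 each, and leaving out normal 1 and laminectomy 2 together gave 20, of which 10 were among the 15. With 1 array left out the count lay between 4 (without contusion 2) and 16. With the replicate block it was 10, of which 9 were among the 15, and the numbers do not pair the arrays. For treated contused against laminectomy the count of 4 became 7 with array weights, 11 with 32 added, 8 with only the compared groups, 10 with the spike covariate, 9 with trend and robust moderation and 0 with the replicate block, and it lay between 2 and 7 with 1 laminectomy array left out. Among the named genes with values in the other sections, signs turned only for 4 near 0. Gfap was -0.0099 after quantile normalization, Nqo1 -0.0014 with array weights and -0.0084 with the replicate block, and Chat 0.0123 with 32 added and 0.24 with the spike covariate. With 1 array left out Gfap lay between -0.072 and 0.14, Nqo1 between -0.30 and 0.37, Aif1 between -0.39 and 0.21 and Chat between -1.09 and 0.98. Some list members without values in the other sections also turned, and not all of them lay near 0. Syt1 went from -1.05 to 0.12 without contusion 1, and P2ry12 from 1.22 to -0.06 without normal 3. The causes were not tested.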

Other observations

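Cell cycle genes were higher in part, and growth factor genes lay on both sides. Of 29 cell cycle genes 22 were higher, 4 stood apart as higher and none as lower, with a median of 0.39 that was 0.77 without contusion 2. Mcm6, a subunit of the replication helicase, had 137 and 218 in the contusion arrays, against 11.1, 29.9 and 28.7 in the normal arrays (3.03 ± 0.97). Cdk1, the kinase of mitotic entry, had 556 and 569 in the contusion arrays, against 39.4, 282 and 320.1 in the normal arrays (1.88 ± 0.69). Among 24 growth factors 14 were higher and 10 were lower. Their median was 0.20, with -0.03 without contusion 1 and -0.09 without normal 2. Of these genes 3 stood apart as higher, Inhba, Igfbp3 and Hbegf, and none as lower. Inhba, the activin subunit, had 194 and 609 in contusion, against 37.9, 78.6 and 51.4 in normal cord (2.68 ± 1.04, and 0.68 in another probe set). Igfbp3, which binds insulin-like growth factors, had 499 and 1029 in contusion, against 241, 155 and 130.0 in normal cord (2.08 ± 0.61). Hbegf, a ligand of the epidermal growth factor receptor, had 431 and 376 in contusion, against 157, 166 and 191 in normal cord (1.24 ± 0.52). Bdnf, a neurotrophin, had 228 and 175 in contusion, against 254, 320.4 and 306 in normal cord. None of these passed the test.

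Of the interleukin-1, TNF and IL-6 family 5 of 16 stood apart as higher and none as lower (median 0.28, 0.06 without contusion 2), with Il6 at 212 and 433 in contusion, against 102, 28.2 and 142 in normal cord (2.03 ± 0.90). Osm, oncostatin M, had 435 and 342 in contusion, against 90.9, 187 and 93.8 in normal cord (1.72 ± 0.70). Interferon response and antigen presentation genes had a median of 0.49 over 19, with 1 standing apart. That median lay at 0.22 to 0.44 with each array left out and was 0.18 when a gene's probe sets were averaged. Serpine2, a protease inhibitor of glia, had 881 and 1234 in the contusion arrays, against 5406, 4717 and 1630.0 in the normal arrays (-1.73 ± 0.55). The metallothionein Mt3 of astrocytes and neurons had 247 and 1103 in the contusion arrays, against 4408, 2352 and 2060.1 in the normal arrays (-2.41 ± 0.90). The sodium channel Scn1a had 84.5 and 178 in the contusion arrays, against 427, 735 and 539.6 in the normal arrays (-2.18 ± 0.61), while the 21 channel genes together had a median of 0.10, with -0.35 without contusion 1, -0.16 without normal 1 and -0.44 when each gene's probe sets were averaged. Subunits of oxidative phosphorylation had a median of -0.19 over 25 (-0.33 to 0.04 with each array left out) and ependymal genes of -0.11 over 7 (-0.75 to 0.43 likewise), with 1 and 0 standing apart as lower and none as higher.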
